A study of Mus musculus with 8 samples.

Results

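The levels of 10 genes that fibroblast growth factor (FGF) signalling induces through the kinase ERK were compared in embryonic mouse lung at E13.5. They were the Sprouty genes Spry1, Spry2 and Spry4, the related genes Spred1 and Spred2, the ETS transcription factor genes Etv1, Etv4 and Etv5, the phosphatase gene Dusp6 and the membrane inhibitor gene Il17rd. Members were taken by gene symbol alone, and 10 of the 10 were found among the 55401 genes of the deposited count table. All 10 passed the filter on low counts, with between 354 and 16885 counts per library. FGF ligands bind receptor tyrosine kinases and activate the RAS-RAF-MEK-ERK kinase cascade, which switches on ETS factors of the PEA3 group together with inhibitors that feed back on the cascade. In the developing lung, FGF10 from the mesenchyme acts on the epithelial tips through FGFR2, and FGF9 from mesothelium and epithelium acts on the mesenchyme. The induced genes are widely used as a readout of the pathway in both layers.

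The mutant group held 4 lung libraries whose genotype the labels write as Tbx4tetOcre with MyrfE6, and it was compared with 4 lung libraries labelled cre control. The labels explain neither the MyrfE6 allele nor which cre transgene the controls carry, and they name no driver cell type. Tbx4 itself is a transcription factor gene of lung mesenchyme, and Myrf encodes a membrane-bound transcription factor that is also expressed in mesothelium. Separate embryos or litters are not stated, so the p-values here reflect library-to-library spread alone, and the technical part of that spread is not known. The series title names the specification and signalling of mesothelium as its subject, and FGF targets address the signalling part. Libraries held 17819285 to 48679134 counts in the mutant group and 17799899 to 19032389 in the control group, with mutant replicate 2 the deepest. Myrf measured 88.4 ± 4.17 CPM (counts scaled to a common library size after TMM normalisation) in mutant and 114 ± 5.64 CPM in control libraries (SD, n = 4 each), and Nkx2-1, the factor that marks lung epithelium, was detected in all 8. Sex-linked transcripts differed between the groups. Mutant replicates 1 and 2 had 134 and 144 CPM summed over 4 Y-linked genes and 0.596 and 0.370 CPM of Xist, while control replicates 2 and 3 had 0 and 0.0562 CPM of the Y-linked genes and 869 and 863 CPM of Xist. Mutant replicates 3 and 4 held both, at 67.9 and 64.2 CPM of the Y-linked genes and 403 and 391 CPM of Xist. So did control replicates 1 and 4, at 76.2 and 72.8 CPM of the Y-linked genes and 402 and 350 CPM of Xist. Libraries thus differed in sex-linked transcripts within each group, so those of a group did not all come from 1 embryo. Whether libraries with both were made from pooled embryos is not stated. On the first principal component of all tested genes, the position of mutant replicate 4 was -4.12, near the -4.96 of control replicate 4, and mutant replicates 1 to 3 had positions of 12.5 to 23.9.

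Of the 10 genes, 4 fell in the mutant lung, namely Spry2, Spred1, Etv4 and Etv5 (edgeR quasi-likelihood test, adjusted p below 0.05 over 15788 tested genes), where 0.931% of all tested genes were lower. None rose, where the share was 0.564%. The log2 fold change (mutant over control) was negative for 9 of the 10 with a median of -0.18, against 0.00 over all tested genes, of which 49.97% were negative. At an unadjusted p below 0.05 there were 8 of the 10, against 13.9% of all genes. Of these 8, Spry1 was higher in the mutant lung and the rest were lower. The same 4 genes had mutant libraries that all lay below all control libraries, a pattern shown by 4.06% of tested genes, and no member lay wholly above, a pattern shown by 3.31% (7.37% in either direction). The count of 4 was 1 without control replicate 1, 1 without control replicate 2 and 2 without control replicate 3. In those fits 0.629%, 0.757% and 0.599% of all tested genes passed, against 1.49% with all 8 libraries. Without mutant replicates 1, 2 and 4 in turn the count of members was 2, 2 and 6, where 1.03%, 0.739% and 2.99% of tested genes passed. With the linear level of the Y-linked genes as a covariate the count of members was 0, where 0.431% of tested genes passed. With their log2 level it was 1, where 0.602% of tested genes passed.

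**Figure D1:**
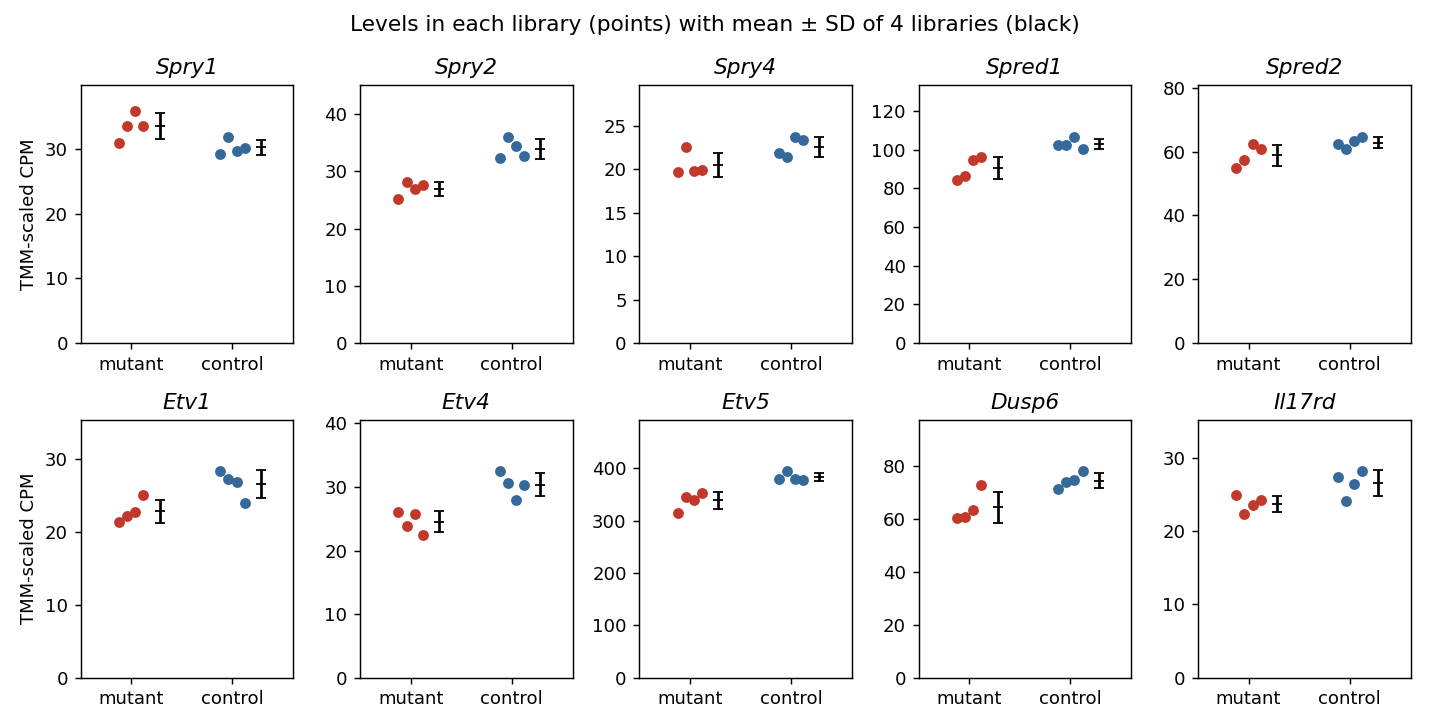
TMM-scaled CPM (vertical axis, from 0) of the 10 genes in each of 4 mutant and 4 control libraries, with black bars for mean ± SD. Mutant points of Spry2, Spred1, Etv4 and Etv5 all lie below the control points, while those of Spry1 lie between 31.0 and 36.0 CPM against 29.3 to 32.0 CPM in control libraries.

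In single mutant libraries, 8, 8, 8 and 5 of the 10 genes lay below every control library in replicates 1 to 4, where 24.2%, 23.3%, 22.1% and 21.9% of all tested genes did. Above every control library lay 0, 1, 1 and 1 of the 10, where the shares of all tested genes were 22.2%, 23%, 22.3% and 20%. The median shift of the 10 genes against the control mean was -0.25, -0.25, -0.18 and -0.11 on the log2 scale in mutant replicates 1 to 4, against -0.01, 0.00, 0.01 and 0.00 in control replicates 1 to 4. Mutant replicate 4 was thus nearest to the controls for the set as a whole, yet it held the lowest Etv4 value of all 8 libraries. Mutant replicates 1 and 2 were the libraries with Y-linked counts and almost no Xist, and the part of sex-linked transcripts in these shifts was not tested beyond the covariate fits and the library subset described with the plot of other settings.

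**Figure D2:**
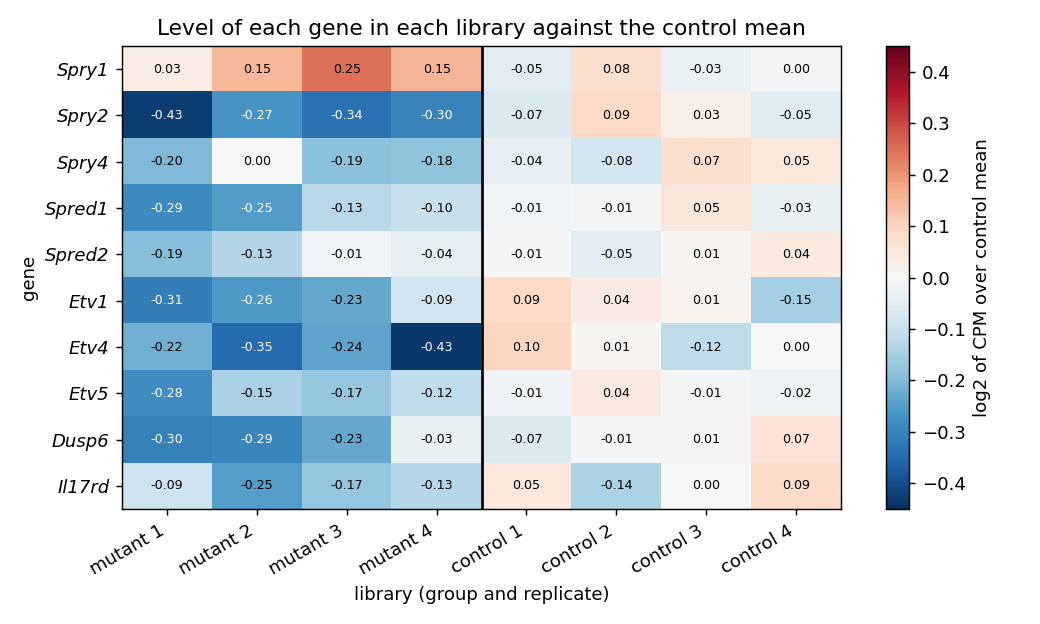
Log2 of each gene's CPM over its control mean (colour and printed number) in 4 mutant libraries (left of the line) and 4 control libraries (right). Spry2 is at -0.43 to -0.27 in all mutant libraries, Spry1 is at 0.03 to 0.25, and Dusp6 is at -0.30 to -0.23 in mutant replicates 1 to 3 but -0.03 in replicate 4.

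The Sprouty genes encode inhibitors that act between the receptor and RAF. Spry2, which is expressed at the tips of the lung epithelium and restrains branching, spans positions 105891947 to 105896819 of chromosome 14 (GRCm38, ENSMUSG00000022114.5, minus strand). It had 25.2, 28.2, 26.8 and 27.5 CPM in mutant replicates 1 to 4, against 32.4, 36.1, 34.5 and 32.6 CPM in control replicates 1 to 4. The groups did not overlap, and Spry2 fell by 20.4% (log2 fold change -0.33, SE 0.0578, edgeR adjusted p = 0.00662). Its promoter is shown beside that of Spry1, the family member whose values went the other way. Each is the 250 bases before the RefSeq transcript start (build GRCm38.p6), 5′ to 3′ in the gene's direction, and capitals mark GGAA or its reverse complement TTCC, the core letters of ETS binding sites. The Spry2 stretch is chr14:105896820-105897069 on the minus strand and the Spry1 stretch is chr3:37639697-37639946 on the plus strand.
Spry2: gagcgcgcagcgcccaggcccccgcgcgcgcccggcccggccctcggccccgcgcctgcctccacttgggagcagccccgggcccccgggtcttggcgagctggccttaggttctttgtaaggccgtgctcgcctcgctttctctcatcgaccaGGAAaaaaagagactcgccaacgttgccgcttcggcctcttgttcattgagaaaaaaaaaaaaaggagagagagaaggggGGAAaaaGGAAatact
Spry1: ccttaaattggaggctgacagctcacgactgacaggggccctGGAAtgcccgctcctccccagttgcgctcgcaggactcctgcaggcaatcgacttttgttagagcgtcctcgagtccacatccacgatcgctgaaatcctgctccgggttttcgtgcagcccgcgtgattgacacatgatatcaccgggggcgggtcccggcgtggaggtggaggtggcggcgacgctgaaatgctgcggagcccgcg
GGAA on either strand occurred 3 times in the Spry2 stretch and 1 time in that of Spry1, where 93.4% of the 32851 tabulated promoters hold it and the median is 3 matches. Both stretches were 62.4% G or C with 23 CpG each, against medians of 52.4% and 6.

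Spry1, on chromosome 3 from 37639947 to 37644598 (ENSMUSG00000037211.12, plus strand), was the only member of the 10 with a positive log2 fold change. It had 31.0, 33.6, 36.0 and 33.7 CPM in mutant replicates 1 to 4, against 29.3, 32.0, 29.7 and 30.2 CPM in control replicates 1 to 4. Mutant replicate 1 lay inside the control range, and Spry1 did not pass (log2 fold change 0.15, 95% interval 0.03 to 0.27, edgeR adjusted p = 0.238). A gene annotated on the opposite strand, Gm42922, shares 710 exon bases with Spry1 and had 0 to 10 counts per library, in a stranded library counted by strand. Spry4, on chromosome 18 from 38586247 to 38601415 (ENSMUSG00000024427.7, minus strand), had 19.7, 22.6, 19.9 and 19.9 CPM in mutant replicates 1 to 4. Its control values were 21.9, 21.4, 23.8 and 23.3 CPM in replicates 1 to 4. Mutant replicate 2 lay among the controls and the other mutant libraries below them, and Spry4 did not pass (log2 fold change -0.13, 95% interval -0.28 to 0.01, edgeR adjusted p = 0.396).

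Ratios of raw counts within a library do not depend on the scaling between libraries. Spry2 had 0.813, 0.838, 0.746 and 0.818 counts per Spry1 count in mutant replicates 1 to 4, against 1.11, 1.13, 1.16 and 1.08 in control replicates 1 to 4. Spry2 was thus the less counted of the pair in every mutant library and the more counted in every control library. The ratio of Spry2 to Spry4 was 1.249 to 1.38 in mutant and 1.40 to 1.69 in control libraries, also without overlap, and that of Spry4 to Spry1 was 0.552 to 0.671 in mutant and 0.668 to 0.8004 in control libraries. These ratios were examined after the values were seen and were not tested.

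**Figure D3:**
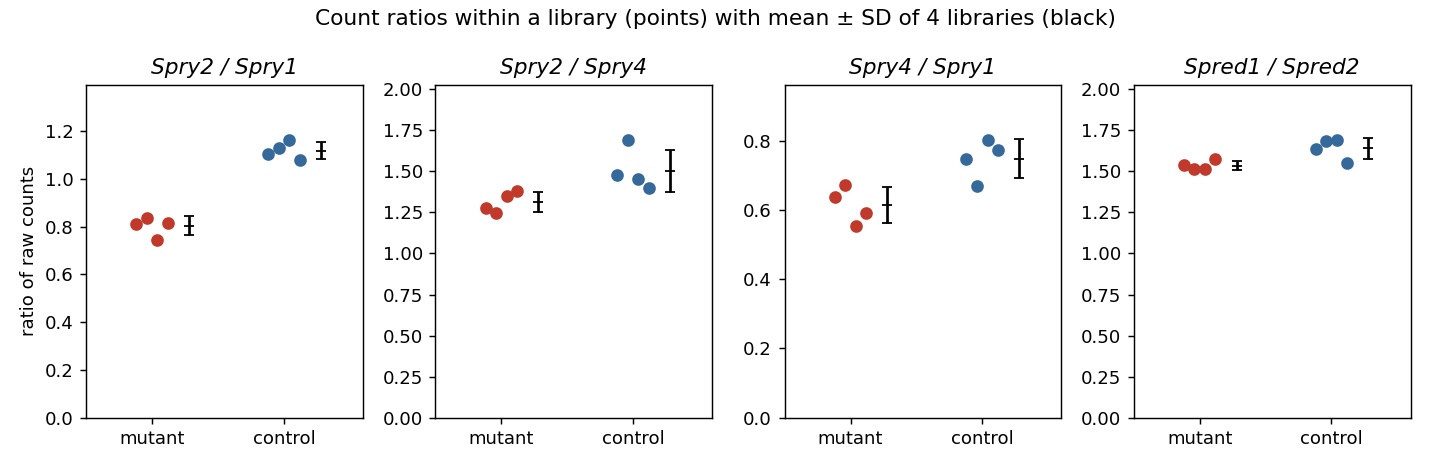
Ratio of raw counts of a gene pair within a library (vertical axis, from 0) in 4 mutant and 4 control libraries, with black bars for mean ± SD. Spry2 over Spry1 averages 0.804 ± 0.0398 in mutant and 1.12 ± 0.0348 in control libraries, and Spred1 over Spred2 overlaps between the groups at 1.51 to 1.58 in mutant and 1.55 to 1.69 in control libraries.

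Spred1 and Spred2 encode Sprouty-related proteins that hold back RAF activation, and SPRED1 does so by bringing the RAS inhibitor neurofibromin to the membrane. Spred1, on chromosome 2 from 117121374 to 117182279 (ENSMUSG00000027351.14, plus strand), had 84.5, 86.6, 94.5 and 96.1 CPM in mutant replicates 1 to 4, against 102, 102, 107 and 101 CPM in control replicates 1 to 4. The groups did not overlap, and the replicates with the lowest values were mutant 1 and 2. Spred1 fell by 12.4% (log2 fold change -0.19, SE 0.0443, edgeR adjusted p = 0.0380). The call was lost without control replicate 1, 2 or 3 and without mutant replicate 1 or 2 (edgeR adjusted p = 0.0785 to 0.150), with 0.00285 to 0.730 over its 19 alternatives. With all 8 libraries it was also lost without robust estimation (edgeR adjusted p = 0.06235). Spred2, on chromosome 11 from 19924375 to 20024026 (ENSMUSG00000045671.17, plus strand), had 55.0, 57.3, 62.3 and 61.0 CPM in mutant replicates 1 to 4 and 62.6, 60.8, 63.3 and 64.8 CPM in control replicates 1 to 4. Mutant replicates 3 and 4 lay among the controls, and Spred2 did not pass (log2 fold change -0.10, 95% interval -0.19 to 0.00, edgeR adjusted p = 0.362). The stretch before the RefSeq start of Spred1, which lies upstream of the start in the count annotation, is chr2:117120821-117121070 on the plus strand, and it is shown with the same marks because Spred1 fell with Spry2.
Spred1: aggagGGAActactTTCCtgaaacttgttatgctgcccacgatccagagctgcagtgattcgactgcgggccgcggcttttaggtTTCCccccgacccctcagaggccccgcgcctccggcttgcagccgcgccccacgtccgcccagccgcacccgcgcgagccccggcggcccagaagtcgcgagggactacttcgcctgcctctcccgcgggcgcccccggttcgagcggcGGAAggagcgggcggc
It was 70.8% G or C with 31 CpG and held GGAA or TTCC 4 times.

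Etv1, Etv4 and Etv5 make up the PEA3 group of ETS factors, and Etv4 and Etv5 carry FGF signals in the distal lung epithelium. Etv5, on chromosome 16 from 22381309 to 22439719 (ENSMUSG00000013089.15, minus strand), had 315, 346, 340.0 and 354 CPM in mutant replicates 1 to 4, against 379, 395, 381 and 378 CPM in control replicates 1 to 4. The groups did not overlap, and Etv5 fell by 11.6% (log2 fold change -0.18, SE 0.0368, edgeR adjusted p = 0.0210). The call was lost without control replicate 1, 2 or 3 and without mutant replicate 1 or 3 (edgeR adjusted p = 0.0501 to 0.0694), with 0.00147 to 0.416 over its alternatives. The first of its 2 tabulated promoters, chr16:22439571-22439820 on the minus strand, lies partly inside the gene as the count annotation draws it and is shown because Etv5 was the most highly expressed member.
Etv5: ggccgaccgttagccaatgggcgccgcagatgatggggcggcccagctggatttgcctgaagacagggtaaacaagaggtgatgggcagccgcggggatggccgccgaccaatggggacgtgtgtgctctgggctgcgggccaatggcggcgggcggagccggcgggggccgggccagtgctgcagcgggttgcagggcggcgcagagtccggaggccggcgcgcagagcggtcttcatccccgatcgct
It was 71.2% G or C with 27 CpG and held neither GGAA nor TTCC, which says only that these letters are not in this stretch. The second Etv5 promoter held them 4 times. The longer ETS consensus CCGGAAGT, found on either strand in 2.88% of tabulated promoters, was in none of the 10 promoters matched for 8 of the members, and Spry4 and Etv4 were not among the 8.

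Etv4, on chromosome 11 from 101769742 to 101785371 (ENSMUSG00000017724.14, minus strand), had 26.1, 23.9, 25.7 and 22.5 CPM in mutant replicates 1 to 4. Its control values were 32.5, 30.6, 28.0 and 30.3 CPM in replicates 1 to 4. The groups did not overlap, and Etv4 fell by 19.1% (log2 fold change -0.31, SE 0.0651, edgeR adjusted p = 0.0252). The call was lost without control replicate 1 or 2 and without mutant replicate 2 (edgeR adjusted p = 0.0639 to 0.0880), with 0.00109 to 0.114 over its alternatives. Etv1, on chromosome 12 from 38779380 to 38870484 (ENSMUSG00000004151.17, plus strand), had 21.5, 22.2, 22.7 and 25.0 CPM in mutant replicates 1 to 4 and 28.4, 27.3, 26.9 and 24.0 CPM in control replicates 1 to 4. Mutant replicate 4 lay above control replicate 4, and Etv1 did not pass (log2 fold change -0.22, 95% interval -0.37 to -0.08, edgeR adjusted p = 0.107). It passed without control replicate 4 and without mutant replicate 4 (edgeR adjusted p = 0.0484 and 0.0450), with 0.0450 to 0.795 over its alternatives. The count ratio of Etv5 to Etv1 was 14.1 to 15.6 in mutant and 13.4 to 15.8 in control libraries, and that of Etv4 to Etv5 was 0.0635 to 0.0828 in mutant and 0.0736 to 0.0856 in control libraries, so both overlapped between the groups.

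Dusp6 encodes the phosphatase that removes the activating phosphates from ERK in the cytoplasm. It lies on chromosome 10 from 99263231 to 99267489 (ENSMUSG00000019960.8, plus strand) and had 60.4, 60.9, 63.6 and 72.9 CPM in mutant replicates 1 to 4, against 71.3, 74.2, 74.9 and 78.1 CPM in control replicates 1 to 4. Mutant replicate 4 alone lay inside the control range, and Dusp6 missed the threshold with all 8 libraries (log2 fold change -0.22, 95% interval -0.33 to -0.10, edgeR adjusted p = 0.0541). Without mutant replicate 4 the log2 fold change was -0.28 and it passed (edgeR adjusted p = 0.00316, with 0.000856 to 0.711 over its alternatives). DESeq2 and limma-voom also called it, at adjusted p = 0.0324 (DESeq2) and 0.0386 (limma-voom). With the linear Y-linked covariate its log2 fold change was -0.14 (edgeR adjusted p = 0.539), and in the 4 libraries that held both Xist and Y-linked counts it was -0.13 (edgeR adjusted p = 0.711). Il17rd encodes Sef, a membrane protein that inhibits FGF receptor signalling. It lies on chromosome 14 from 27038941 to 27107286 (ENSMUSG00000040717.6, plus strand) and had 24.8, 22.3, 23.5 and 24.2 CPM in mutant replicates 1 to 4. Its control values were 27.4, 24.0, 26.4 and 28.1 CPM in replicates 1 to 4. Control replicate 2 lay among the mutant libraries, and Il17rd did not pass (log2 fold change -0.16, 95% interval -0.30 to -0.03, edgeR adjusted p = 0.248).

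Levels were compared between genes per length, as CPM per kilobase of summed exon. Etv5 stood highest, at 82.6 ± 4.05 CPM per kilobase in mutant and 93.4 ± 1.87 in control libraries (SD, n = 4 each), above 97.3% of tested genes in the controls. Dusp6 followed at 20.6 ± 1.86 CPM per kilobase in mutant and 23.8 ± 0.900 in control libraries. Spry2 and Spred1 came next, at 12.9 ± 0.613 and 13.3 ± 0.846 CPM per kilobase in mutant libraries and 16.2 ± 0.832 and 15.2 ± 0.393 in control libraries, and overlapped each other in both groups. Spred2 (12.8 ± 0.731 mutant, 13.6 ± 0.360 control) and Spry1 (11.5 ± 0.700 mutant, 10.4 ± 0.403 control) followed. In control libraries Spred2 lay below Spry2 and Spred1 and above Spry1 without overlap, while in mutant libraries it overlapped all 3. Spry1 overlapped Etv4 in control libraries (9.78 ± 0.588) but not in mutant libraries (7.91 ± 0.546). Spry4, Il17rd and Etv1 were lowest, at 4.31 ± 0.287, 2.16 ± 0.1002 and 1.72 ± 0.116 CPM per kilobase in mutant and 4.75 ± 0.241, 2.41 ± 0.163 and 2.002 ± 0.141 in control libraries. Summed exon length counts every annotated isoform, and that of Etv1 is 13296 bases, so a gene with long unused exons is placed too low. The spread between control libraries was small, with a coefficient of variation of 2.002% for Etv5 and 7.06% for Etv1 at the extremes. In the whole lung, fewer cells that make a transcript and less of it per cell cannot be told apart.

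The comparison was repeated in the 4 libraries that held both Xist and Y-linked counts, mutant replicates 3 and 4 against control replicates 1 and 4. All 10 log2 fold changes kept their sign and 0 of the 10 genes passed in edgeR, where 0.546% of the 15924 genes tested in this subset did. An unadjusted p below 0.05 was found for 5 of the 10, against 8.66% of those genes. Of these 5, Spry1 was higher in the mutant libraries and the rest were lower. DESeq2 and limma-voom were not run on this subset. Etv4 was at -0.38 (95% interval -0.57 to -0.18, edgeR adjusted p = 0.114) and Spry2 at -0.25 (95% interval -0.42 to -0.08, edgeR adjusted p = 0.281). Etv5 was at -0.12 (95% interval -0.22 to -0.02) and Spred1 at -0.09 (95% interval -0.20 to 0.03), and Spry1 was at 0.23 (95% interval 0.06 to 0.40). With the linear Y-linked level as a covariate over all 8 libraries, Spry2 was at -0.27 (edgeR adjusted p = 0.160), Etv4 at -0.37 (edgeR adjusted p = 0.0640), Etv5 at -0.14 (edgeR adjusted p = 0.268) and Spred1 at -0.10 (edgeR adjusted p = 0.538). Libraries with Xist alone were all controls and libraries with Y-linked counts alone were all mutants, so for these 4 libraries sex-linked transcripts and genotype cannot be told apart.

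**Figure D4:**
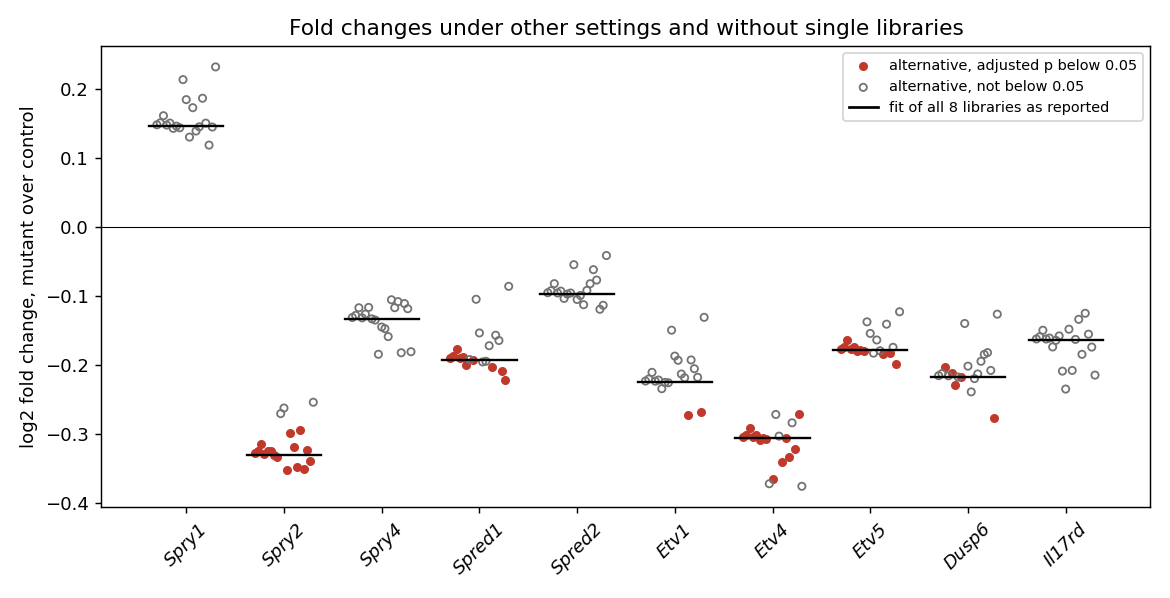
Log2 fold change, mutant over control, of the 10 genes in the fit of all 8 libraries (black line) and under 19 other settings (points, red where adjusted p is below 0.05). Spry2 stays between -0.35 and -0.25 and is called in 16 of 19, Etv4 in 14, Etv5 in 11, Spred1 in 10, Dusp6 in 5 and Etv1 in 2, while Spry1, Spry4, Spred2 and Il17rd are called in 0 of 19.

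Upstream of these genes, 11 FGF ligands and receptors were tested in edgeR, of which 1 fell and 0 rose, where 1.49% of all tested genes passed. An unadjusted p below 0.05 was found for 4, where 13.9% of all tested genes had one. These 4 went both ways, with Fgf1 and Fgf2 higher in mutant libraries and Fgf9 and Fgf10 lower. DESeq2 called 2, of which 1 was lower and 1 higher, and limma-voom called 1. The log2 fold change was positive for 8 of the 11, with a median of 0.05. Fgf9, the ligand of mesothelium and epithelium, had 4.93, 5.08, 4.002 and 5.40 CPM in mutant replicates 1 to 4, against 8.13, 6.31, 6.83 and 6.31 CPM in control replicates 1 to 4. The groups did not overlap, and Fgf9 fell by 29.5% (log2 fold change -0.50, SE 0.122, edgeR adjusted p = 0.0473), a call lost without control replicate 1, 2 or 3 and without mutant replicate 1, 2 or 3 (edgeR adjusted p = 0.0648 to 0.167, with 0.00694 to 0.283 over its alternatives). The Fgf9 call was also lost without robust estimation (edgeR adjusted p = 0.0679), with the linear and log2 Y-linked covariates (edgeR adjusted p = 0.146 and 0.118) and in the subset of 4 libraries with both kinds of sex-linked transcript (edgeR adjusted p = 0.283), at log2 fold changes of -0.62, -0.59 and -0.62 in the last 3. Fgf10, the mesenchymal ligand, averaged 27.4 ± 2.37 CPM in mutant and 32.5 ± 3.52 CPM in control libraries (SD, n = 4 each; log2 fold change -0.24, 95% interval -0.41 to -0.08, edgeR adjusted p = 0.140). Its log2 fold change was -0.09 with the linear and -0.09 with the log2 Y-linked covariate and -0.05 in the subset of 4 libraries. Fgf1, named after its values were seen, lay the other way, at 8.36 ± 1.94 CPM in mutant and 5.77 ± 0.616 CPM in control libraries (SD, n = 4 each; log2 fold change 0.55, 95% interval 0.22 to 0.88, edgeR adjusted p = 0.0935). The receptor genes did not pass in edgeR (adjusted p = 0.755 and 0.696), with Fgfr1 at 162 ± 7.81 CPM in mutant and 158 ± 5.65 CPM in control libraries and Fgfr2 at 188 ± 15.8 CPM in mutant and 181 ± 7.25 CPM in control libraries (SD, n = 4 each). Their log2 fold changes were 0.04 (95% interval -0.05 to 0.12) and 0.06 (95% interval -0.05 to 0.17).

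Of 22 genes of the RAS-ERK cascade, which include the adaptor gene Frs2, 0 passed in edgeR, DESeq2 or limma-voom. In edgeR 1.49% of all tested genes passed. An unadjusted edgeR p below 0.05 was found for 2 of the 22, where 13.9% of all tested genes had one. The median log2 fold change of the 22 was -0.03, within -0.13 to 0.05. Mapk3, which encodes ERK1 and was the most expressed of them per kilobase, averaged 197 ± 2.17 CPM in mutant and 195 ± 3.51 CPM in control libraries (SD, n = 4 each). Of 14 tested genes among 17 other ERK-induced genes, 0 passed with the 3 tools, with a median log2 fold change of -0.05. The log2 fold change was positive for 5 and negative for 9. An unadjusted edgeR p below 0.05 was found for 3 of the 14, where 13.9% of all tested genes had one. These 3 went both ways, with Fos higher in mutant libraries (log2 fold change 0.52, 95% interval 0.11 to 0.92) and Ccnd1 and Emp1 lower. Ccnd1, the cyclin D1 gene, had 326, 326, 326 and 346 CPM in mutant replicates 1 to 4 and 350.2, 354, 356 and 360.1 CPM in control replicates 1 to 4. These did not overlap, where 4.06% of tested genes lay wholly below the controls. Ccnd1 did not pass (log2 fold change -0.10, SE 0.0324, edgeR adjusted p = 0.139).

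Of 19 tested genes among 23 other ETS factors, 0 passed with the 3 tools. An unadjusted edgeR p below 0.05 was found for 4 of the 19, where 13.9% of all tested genes had one. These 4 went both ways, with Ehf and Spdef higher in mutant libraries and Ets2 and Gabpa lower. The median log2 fold change of the 19 was -0.01. Erf, an ETS repressor that ERK inactivates, was the most expressed of them per kilobase and averaged 139 ± 12.1 CPM in mutant and 146 ± 4.92 CPM in control libraries (SD, n = 4 each; edgeR adjusted p = 0.593). Of 8 other dual-specificity MAP kinase phosphatase genes, 0 passed with the 3 tools and 0 had an unadjusted edgeR p below 0.05, with a median of 0.01. Dusp9, an ERK phosphatase gene on chromosome X, averaged 42.2 ± 3.44 CPM in mutant and 44.6 ± 2.20 CPM in control libraries (SD, n = 4 each; edgeR adjusted p = 0.579). The share of all tested genes that passed in either direction was 1.49%.

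**Figure D5:**
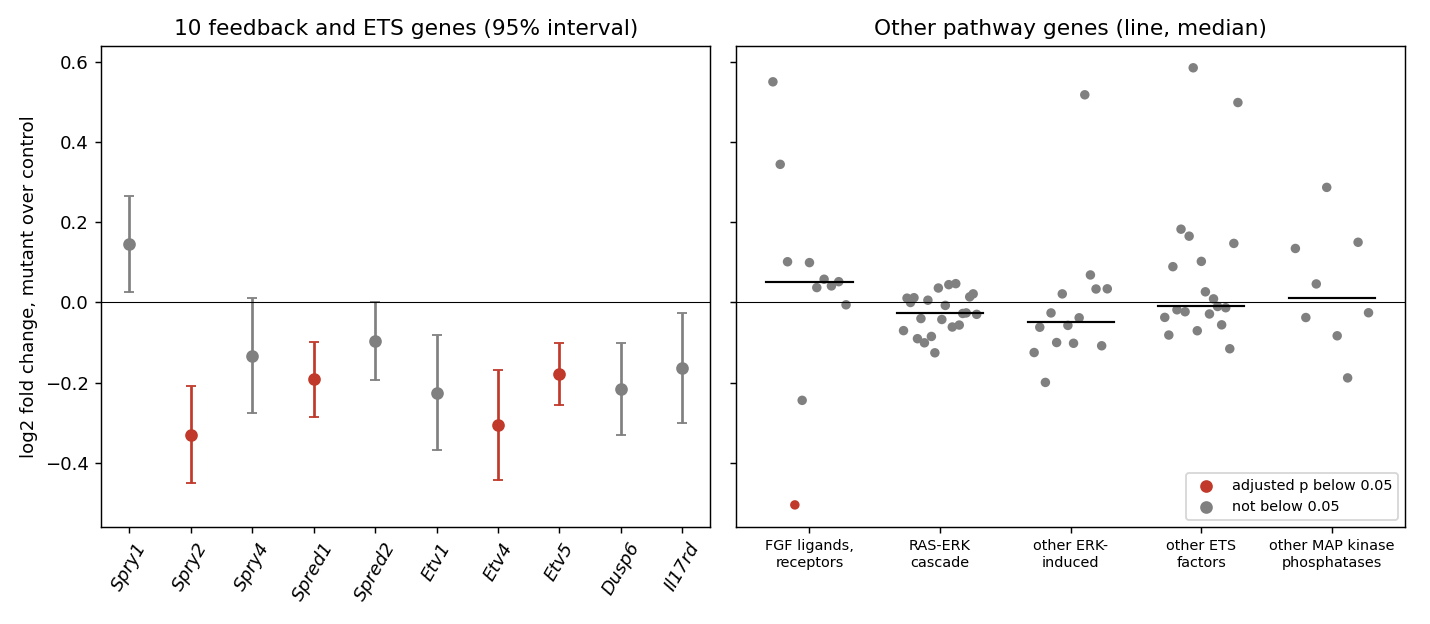
Log2 fold change, mutant over control, of the 10 feedback and ETS genes with 95% intervals (left) and of 5 lists of other pathway genes with their medians (right); red marks an adjusted p below 0.05. The 10 genes centre at -0.18, and the medians of the other lists lie between -0.05 and 0.05, with Fgf9 the 1 gene called.

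Markers of the cell types that use the pathway were set beside these values. The log2 fold change was above 0 for all 12 epithelial markers (median 0.12), and their summed level was 1127 to 1181 CPM in mutant and 1053 to 1109 CPM in control libraries, without overlap. Of the 12, 0 passed in edgeR, DESeq2 or limma-voom. An unadjusted edgeR p below 0.05 was found for 8, where 13.9% of all tested genes had one. The summed level of the 10 FGF-induced genes lay the other way, at 664 to 737 CPM in mutant and 787 to 803 CPM in control libraries. Etv5 alone gave 315 to 354 CPM of these sums in mutant and 378 to 395 CPM in control libraries. The sum therefore mainly follows Etv5, and it hides the higher mean of Spry1 in mutant libraries. Of 9 markers of the distal epithelial tip, 0 passed in edgeR, 1 in DESeq2 and 0 in limma-voom, 1 had an unadjusted edgeR p below 0.05, and sums were 439 to 472 CPM in mutant and 461 to 496 CPM in control libraries. The log2 fold change was positive for 3 of the 9 and negative for 6, with a median of -0.05.

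Of 13 mesothelial markers, 4 fell and 0 rose in edgeR, where 0.931% of all tested genes were lower and 0.564% higher. DESeq2 called 6 and limma-voom 4, and 7 had an unadjusted edgeR p below 0.05, where 13.9% of all tested genes did. Log2 fold changes were negative for 11 and positive for 2. Sums of the 13 were 333 to 372 CPM in mutant and 406 to 434 CPM in control libraries, and none was at 0 in all libraries. Of 8 proximal airway markers, 2 rose and 0 fell in edgeR, with sums of 51.5 to 59.0 CPM in mutant and 38.4 to 50.2 CPM in control libraries. DESeq2 and limma-voom each called 2 of these markers, and 4 had an unadjusted edgeR p below 0.05. Log2 fold changes were positive for 4 and negative for 4. Of 11 mesenchymal markers, 1 fell and 0 rose in edgeR, and sums overlapped at 7705 to 9192 CPM in mutant and 7442 to 8665 CPM in control libraries. Most of these sums came from Col1a1, Col1a2 and Col3a1, with means of 2382, 1909 and 3007 CPM in mutant libraries. Wholly below the controls lay 2 of the 11 and wholly above them 0, where 4.06% and 3.31% of tested genes did. DESeq2 and limma-voom each called 1, and 2 had an unadjusted edgeR p below 0.05. Smooth muscle, endothelial, nerve, heart and immune lists held 0, 1, 1, 0 and 1 changed genes in edgeR among 8, 8, 8, 7 and 8 tested, 1, 1, 2, 1 and 1 in DESeq2 and 0, 1, 1, 0 and 1 in limma-voom, and 4, 2, 4, 1 and 1 had an unadjusted edgeR p below 0.05. In the same order, log2 fold changes were positive for 7, 8, 5, 7 and 2 genes and negative for 1, 0, 3, 0 and 6. Their medians were 0.13, 0.08, 0.30, 0.29 and -0.08. All tested endothelial and heart markers were thus above 0, as the epithelial markers were. The part of these differences in cell markers in the levels of the 10 genes was not tested.

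Genes outside the set were ranked by how closely their log2 CPM followed the mean standardised log2 CPM of the 10 genes over the 8 libraries. The closest 5 with established names were Foxo4, Rad23b, Rcsd1, Sowahc and Rcor1, with Pearson correlations of 0.983, 0.981, 0.981, 0.9725 and 0.9645. These are descriptions of a shared pattern over libraries of 2 groups, chosen as the highest of all tested genes, so they carry no test. Foxo4, a forkhead factor gene on chromosome X, averaged 67.7 ± 3.29 CPM in mutant and 77.2 ± 2.05 CPM in control libraries, and Rcsd1 averaged 43.3 ± 1.72 CPM in mutant and 50.7 ± 0.831 CPM in control libraries (SD, n = 4 each). Within the set, Spred1 and Etv5 lay closest to the shared mean, of which they are a part, at 0.961 and 0.9545, and Spry1 lay at -0.544.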

How the data were processed

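RNA sequencing of 8 lung libraries at E13.5, 4 mutant and 4 control, was analysed from 1 table of raw, unnormalised counts per gene that the authors deposited. Per the file headers, counts were made by featureCounts 1.6.4 run on read pairs and by strand (option 2), summing exons per gene of GENCODE vM25, with no option that keeps multi-mapping reads or reads on several genes. Per the submitters' processing notes, STAR, DESeq2 and the build GRCm38 (mm10) were used. Per the labels' protocols, the kit was a stranded messenger RNA kit.

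Of 55401 gene IDs, 55141 were paired with symbols. Genes were filtered with edgeR 4.0.16 (R 4.3.3) at its default, leaving 15788 with 99.87% of the counts, scaled by TMM, and tested with robust quasi-likelihood F tests, two-sided, without covariates. Benjamini-Hochberg adjustment ran across all 15788 genes, with a threshold of 0.05. SE and 95% intervals belong to the log2 fold change. At the smallest total, 3 counts equal 0.169 CPM, a floor for counting error only. Replicate pairs within a group differed by 2.92 to 8.91 times the sampling variance, so none was the same library sequenced again. The check cannot tell a second preparation of the same RNA from another sample, as either can exceed the sampling variance. Steps were tested on simulated data.

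The members, lists and tests were chosen with earlier results of these data known. Outside the 10 members, the text names each called gene of 5 pathway lists, or the most expressed per kilobase where none was called, with Fgf9, Fgf10, Fgfr1 and Fgfr2 always, the 5 genes most like the members' mean, and Myrf. Nkx2-1, Fgf1, Fgf2, Fos, Emp1, Ets2, Gabpa, Ehf, Spdef, Col1a1, Col1a2 and Col3a1 were chosen after their values were seen. Spry3, 1 of the listed names, was not analysed here. Alternatives covered scaling, filters, DESeq2 1.42.0, limma-voom (limma 3.58.1), robustness, a replicate block, Y-linked covariates and single libraries left out.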

Additional observations from a re-analysis of the deposited data

Results flagged for a closer look

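In 24 genes and 2 groups of 4 libraries each, 48 sets of values were searched for a library that stood apart by Dixon's criterion, which flags about 5% of such sets by chance, and 4 were found. Spry4 in the mutant group was set apart by replicate 2 at 22.56 CPM, where the other mutant libraries lay between 19.7 and 19.9 CPM. Etv5 in the control group was set apart by replicate 2 at 394.6 CPM, where the others lay between 378 and 381 CPM. Ccnd1 in the mutant group was set apart by replicate 4 at 346.5 CPM, against 325.9 to 326.4 CPM in the others. Erf in the control group was set apart by replicate 1 at 138.6 CPM, against 148.3 to 148.8 CPM in the others.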

How the results depend on the processing

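Under 19 alternatives no member changed direction; 1 of the 19, the subset of mutant replicates 3 and 4 with control replicates 1 and 4, was chosen after the data were seen. The count of called members, 4, was 0 with the linear Y-linked covariate, 1 with the log2 Y-linked covariate, 0 in that 4-library subset, and 1 to 6 when single libraries were left out. The count over all genes, 236, was 366 with DESeq2, 791 with no low-count filter, 142 without robust estimation, 68 and 95 with the linear and log2 Y-linked covariates, 87 in the 4-library subset, and 96 to 479 without single libraries (100, 121 and 96 without control replicates 1 to 3, 118 without mutant replicate 2 and 479 without mutant replicate 4). Changed genes of the other lists, 11, were 18 with DESeq2, 30 with no low-count filter, 7 with the log2 Y-linked covariate and 6 to 12 without single libraries. The log2 fold change of Erf, -0.07, turned to 0.01433 with the linear Y-linked covariate and to 0.02855 in the 4-library subset. The cause of these differences was not tested; fits on fewer libraries have fewer samples. The labels give both groups replicate numbers 1 to 4, but same-numbered libraries deviated together at correlations of only 0.0811, 0.0648, 0.181 and 0.0125, and 2 of 4 mutant libraries correlated best with their own number, so the numbers were not taken as a pairing. With the replicate number as a block, 541 genes, 22 listed genes and 5 members were called, Dusp6 being added.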
